A study of Mus musculus with 10 samples.

Results

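The transcripts described here encode the machinery of mitosis: the cyclins and kinases that start it, condensins, kinetochores, spindle motors and the proteins that cut the cell apart. They were measured in the ventricular apex of hearts from wild-type FVB/NJ mice, an inbred laboratory strain, at 9 weeks of age. The members were chosen by gene symbol for the known functions of their products. The rule uses no measured value, but earlier results of these data were known when the list was made. The list has 50 symbols, and 49 of them have a row among the 20692 genes of the count table. The missing symbol is Cdk1, whose Ensembl gene is listed under the older symbol Cdc2a. That row was not counted as a member, and its values are given apart.

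Of the 10 hearts, 5 were taken 1 week after transverse aortic constriction (TAC), an operation that narrows the aortic arch and loads the left ventricle with pressure, and 5 came from sham-operated animals. All 10 are labelled female, and no transgene or drug is named for either group. The titles of the sham libraries do not carry the word sham, and their group comes from the design text of the series. The labels call the tissue whole heart, while the extraction protocol names the frozen ventricular apex. In such bulk tissue, fewer cells of a type and less RNA per cell cannot be told apart. Levels are in CPM, which are counts relative to the scaled total of a library, and a fold change is TAC over sham, on the log2 scale with its standard error (SE). Adjusted p-values are those of edgeR's quasi-likelihood test over all tested genes with the Benjamini-Hochberg method, and a gene is said to have risen or fallen where that value was under 0.05.

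As background, a dividing cell enters mitosis when cyclin-dependent kinase is switched on by A- and B-type cyclins, condenses its chromosomes, attaches them through kinetochores to spindle microtubules, and holds anaphase back by the spindle checkpoint until all are attached. The anaphase-promoting complex then releases the sister chromatids, and a central spindle and contractile ring divide the cytoplasm. Most of these transcripts accumulate only in dividing cells, through the DREAM and MuvB complexes, which act at CHR elements and meet the factor NF-Y at CCAAT boxes. Adult cardiomyocytes rarely divide, while fibroblasts, endothelial cells and leukocytes of the heart can.

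The libraries held 7410967 to 10126574 counts each, and 12001 genes had enough counts to be tested. The processing that the submitters list differs between the groups (TopHat 1.3.0 for TAC libraries, TopHat2 2.0.10 for sham libraries), and its part in any difference cannot be told apart from that of the operation. TAC heart 1 did not match its label of female: Xist, transcribed from the inactive X chromosome, had 14 counts there against 1042 to 1561 in the other 9 libraries, and the Y-linked genes Ddx3y and Eif2s3y had 155 and 132 counts against at most 2 elsewhere. Without that heart, 37 of the 40 testable members rose, as with it, and no member's log2 fold change moved by more than 0.18.

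The mitotic transcripts were several-fold more abundant 1 week after TAC than in sham hearts, where most of them were scarce. Summed over the 49 members, the level was 364, 215, 409, 272 and 323 CPM in TAC hearts 1 to 5, against 63.7, 64.3, 105, 91.4 and 78.05 CPM in sham hearts 1 to 5. The TAC mean was 3.93 times the sham mean, and the lowest TAC heart had 2.05 times the sum of the highest sham heart. In 41 of the 49 members every TAC heart lay above every sham heart, whereas 9.3% of all genes with a count did so, and in 0 members did every TAC heart lie below, as 8.47% of genes with a count did. Among the members, 31 averaged at most 1 CPM in sham hearts, 32 had fewer than 50 counts over the 5 sham libraries together, and 11 had at least 1 sham library with no count, so that many folds rest on few sham reads. No member was without counts in any TAC library.

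Enough counts for a test were found for 40 members, and of these 37 rose and 0 fell, where 18.8% of all tested genes rose and 17% fell. Of all calls, 52.5% were higher in TAC hearts, and 73.8% with library totals alone as scaling, which moved the median log2 fold change of all tested genes to 0.11, with 38 members higher. All 40 fitted changes were above 0, and DESeq2 and limma-voom also called 37 higher. Of the 40, 30 reached the level required by the filter in all 5 TAC hearts but not in all 5 sham hearts, so they entered the test through the group in which they were high, and the count describes these 40 genes only. The other 10 reached it in every sham heart, and 7 of them rose: Mki67, Smc2, Smc4, Incenp, Cdc20, Ube2c and Hmmr. The 3 that did not pass, Cenpa, Cenpf and Spc24, all belong to the kinetochore. With no filter, all 49 members could be fitted, 45 rose and 0 fell, where 13.5% of genes rose, and Kif18a joined the 3 kinetochore genes as not passing. Rises of at least 2-fold were fitted for 36 of the 40 tested members, of at least 4-fold for 30 and of at least 8-fold for 12.

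**Figure D1:**
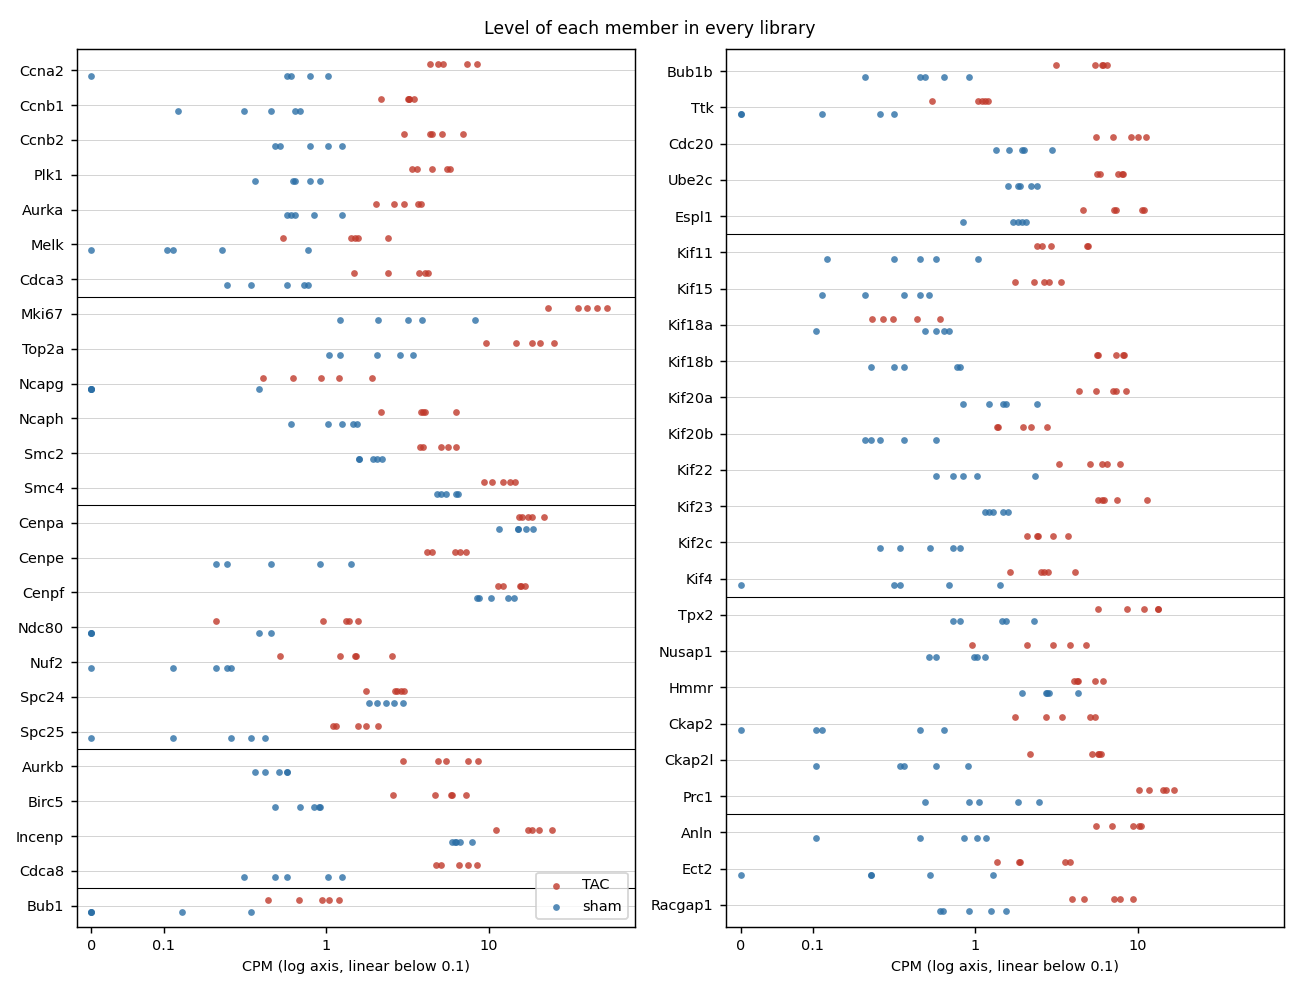
Level of each of the 49 members in every library, in CPM on a log axis that is linear below 0.1. Each red point is a TAC heart and each blue point below it a sham heart, 5 of each per gene, with members grouped by role between the black lines. The red points stand to the right of all blue points in 41 rows, and the groups overlap for Cenpa, Cenpf, Spc24, Hmmr, Kif18a, Melk, Ndc80 and Nusap1.

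The promoters of these genes are shown because they are a feature that the choice of members did not use. Mitotic genes are known to carry CHR elements and CCAAT boxes, as given above. The shares below thus describe a list chosen by function and not an effect of TAC. RefSeq promoter entries on GRCm38.p6, which span 250 bases before to 50 bases after the transcript start, were matched by gene for 42 of the 49 members. The windows printed here run from 150 bases before to 30 bases after the start, 5′ to 3′ on the strand of the gene, with capitals for a CCAAT box (CCAAT, or ATTGG on the other strand) and for a CHR element (TTTGAA, or TTCAAA on the other strand). In the printed windows no match shares a letter with another. The first 3 are of the tested members with the largest fold changes, Kif18b (chr11:102925095-102925274), Ckap2 (chr8:22185790-22185969) and Anln (chr9:22389177-22389356), all on the minus strand.
Kif18b: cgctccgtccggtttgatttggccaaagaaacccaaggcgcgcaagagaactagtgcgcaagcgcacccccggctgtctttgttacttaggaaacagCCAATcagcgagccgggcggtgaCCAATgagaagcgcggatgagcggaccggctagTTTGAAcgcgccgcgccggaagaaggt
Ckap2: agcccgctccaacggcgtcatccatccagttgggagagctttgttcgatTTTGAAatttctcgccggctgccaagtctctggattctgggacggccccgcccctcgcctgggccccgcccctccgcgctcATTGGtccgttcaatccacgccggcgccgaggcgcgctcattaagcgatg
Anln: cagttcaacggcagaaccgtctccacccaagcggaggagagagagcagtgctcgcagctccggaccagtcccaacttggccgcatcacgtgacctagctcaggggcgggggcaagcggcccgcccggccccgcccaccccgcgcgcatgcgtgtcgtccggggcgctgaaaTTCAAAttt
The next 3 belong to the tested members with the smallest fold changes that have an entry, Cenpa (chr5:30666736-30666915, plus strand), Cenpf (chr1:189688057-189688236, minus strand) and Hmmr (chr11:40733408-40733587, minus strand).
Cenpa: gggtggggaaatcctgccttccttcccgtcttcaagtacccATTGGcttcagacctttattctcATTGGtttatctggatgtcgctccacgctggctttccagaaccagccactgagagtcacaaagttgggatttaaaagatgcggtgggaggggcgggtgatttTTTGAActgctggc
Cenpf: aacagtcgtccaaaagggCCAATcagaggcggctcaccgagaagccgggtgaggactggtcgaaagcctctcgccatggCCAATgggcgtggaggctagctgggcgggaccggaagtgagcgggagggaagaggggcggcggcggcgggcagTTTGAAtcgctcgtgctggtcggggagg
Hmmr: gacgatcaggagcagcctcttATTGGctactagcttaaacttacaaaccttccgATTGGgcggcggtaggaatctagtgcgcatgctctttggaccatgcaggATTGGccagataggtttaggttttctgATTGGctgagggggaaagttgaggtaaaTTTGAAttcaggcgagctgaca
Those of Mki67 (chr7:135716350-135716529) and Top2a (chr11:99024160-99024339), both on the minus strand, were added after the values were seen because Mki67 and Top2a are the most abundant genes of their role group.
Mki67: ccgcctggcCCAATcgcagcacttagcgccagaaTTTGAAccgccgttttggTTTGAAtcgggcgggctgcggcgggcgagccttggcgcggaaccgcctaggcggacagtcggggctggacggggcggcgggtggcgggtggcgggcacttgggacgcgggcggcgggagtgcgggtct
Top2a: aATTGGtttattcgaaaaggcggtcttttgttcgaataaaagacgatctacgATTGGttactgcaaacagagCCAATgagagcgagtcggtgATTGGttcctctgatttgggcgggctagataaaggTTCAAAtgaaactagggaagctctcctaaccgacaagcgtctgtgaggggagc

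Counting the start as base 1 and the base before it as -1, Kif18b has a CHR element at base 4, Cenpf at base 3, Hmmr at base 9, Cenpa at base 17 and Anln at base 22. In Top2a it lies at base -23, in Ckap2 at base -101, and Mki67 has a pair, at bases -116 and -98. CCAAT boxes stand at bases -53 and -30 of Kif18b, at base -20 of Ckap2 and at bases -129, -96, -47 and -20 of Hmmr, while the printed window of Anln holds none. The promoters of Cenpa and Cenpf, which did not pass the test, hold both motifs as well. In the full entries, a CHR element was present in 33 of 42 members (78.6%), against 13.7% of the 8461 tested genes with an entry. A CCAAT box was present in 31 of 42 (73.8%), against 42.7%, and both in 28 of 42 (66.7%), against 6.84%. The CHR matches sat near the start: 21 of 42 members (50%) had one within the first 50 transcribed bases, against 1.16% of tested genes. With only the 150 bases before the start searched, the CHR share of members was 35.7%, against 6.44% of tested genes. For 70 other mitotic genes with an entry the share with a CHR element in the full window was 45.7%, and for 19 subunits and regulators of cohesin and the anaphase-promoting complex 10.5%. A match is a run of letters and does not show that a factor is bound there.

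**Figure D2:**
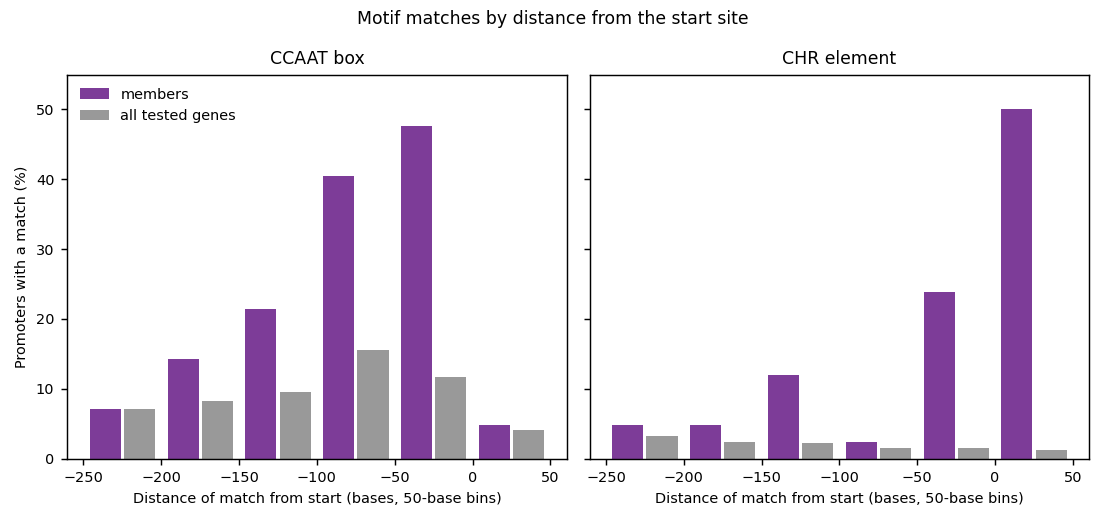
Share of promoters with a CCAAT box (left) or a CHR element (right) by distance of the match from the transcript start, in bins of 50 bases, for 42 members (purple) and 8461 tested genes (grey). CHR matches of members are most frequent in the first 50 bases after the start (50%, against 1.16%), and CCAAT matches in the 50 bases before it (47.6%, against 11.7%).

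Cyclins and kinases of mitotic entry rose together: all 6 that could be tested passed, with a median log2 fold change of 2.64, beside 0.00 over all tested genes. Each of the 6 reached the level required by the filter in all 5 TAC hearts but not in all 5 sham hearts. They thus entered the test through the group in which they were high. In every role group below, some or all tested members did so too, and the background is 18.8% of all tested genes rising. Ccna2, cyclin A2, which drives DNA synthesis and the approach to mitosis, had 7.40, 4.35, 8.44, 4.91 and 5.27 CPM in TAC hearts 1 to 5, against 0, 0.610, 1.03, 0.801 and 0.572 CPM in sham hearts 1 to 5. All TAC hearts lay above all sham hearts, 1 of which had no count, and the rise was 10.2-fold (log2 fold change 3.35 ± 0.38 (SE), edgeR adjusted p = 5.91e-05). Ccnb2, a B-type cyclin, had 5.20, 4.35, 6.99, 3.03 and 4.50 CPM in TAC hearts 1 to 5, against 0.524, 0.488, 1.03, 1.26 and 0.801 CPM in sham hearts 1 to 5. The groups did not overlap (log2 fold change 2.53 ± 0.29 (SE), edgeR adjusted p = 6.58e-05). Plk1, the polo-like kinase of centrosomes and kinetochores, had 5.55, 3.40, 5.78, 3.65 and 4.50 CPM in TAC hearts 1 to 5, against 0.629, 0.366, 0.646, 0.915 and 0.801 CPM in sham hearts 1 to 5, again without overlap (log2 fold change 2.74 ± 0.25 (SE), edgeR adjusted p = 2.71e-05). Aurka, the Aurora kinase of the spindle poles, changed least in this group. It had 3.70, 2.04, 3.86, 3.03 and 2.63 CPM in TAC hearts 1 to 5, against 0.838, 0.610, 0.646, 1.26 and 0.572 CPM in sham hearts 1 to 5, and TAC heart 2 was the lowest of its group but above every sham heart (log2 fold change 1.93 ± 0.26 (SE), edgeR adjusted p = 0.000175). Ccnb1, cyclin B1, and Cdca3, which helps to remove an inhibitor of mitotic entry, had log2 fold changes of 2.76 ± 0.29 and 2.55 ± 0.36 (edgeR adjusted p = 4.62e-05 and 0.000213). Melk, a kinase of proliferating cells, was too scarce for the test, with 13, 4, 20, 15 and 13 counts in TAC hearts, against 1, 0, 6, 1 and 2 counts in sham hearts. Its groups overlapped, since TAC heart 2 lay below sham heart 3.

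The Cdc2a row, which is the Cdk1 gene by its Ensembl identifier and encodes the kinase that these cyclins activate, had 44, 33, 69, 38 and 55 counts in TAC hearts, against 4, 4, 5, 11 and 3 counts in sham hearts. No sham heart reached the lowest TAC heart, and the rise was 8.68-fold (log2 fold change 3.12 ± 0.32 (SE), edgeR adjusted p = 3.93e-05). With that row counted, 38 members rose.

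Among genes of chromosome structure, all 5 that were tested rose. Mki67, whose product coats mitotic chromosomes and is used to mark proliferating cells, had 46.3, 23.4, 53.4, 35.4 and 40.2 CPM in TAC hearts 1 to 5, against 2.10, 1.22, 8.27, 3.89 and 3.20 CPM in sham hearts 1 to 5. TAC heart 3 was the highest of its group and sham heart 3 of its own, and the lowest TAC heart still lay well above sham heart 3 (log2 fold change 3.44 ± 0.33 (SE), edgeR adjusted p = 2.73e-05). Top2a, the topoisomerase that untangles sister DNA, had 20.7, 9.65, 25.3, 14.8 and 18.5 CPM in TAC hearts 1 to 5, against 1.05, 1.22, 2.84, 3.43 and 2.06 CPM in sham hearts 1 to 5. Its groups were apart (log2 fold change 3.08 ± 0.31 (SE), edgeR adjusted p = 3.25e-05). Of the condensin members, those that were tested rose less. Smc4, a core subunit shared by both condensins, had 14.6, 10.5, 13.5, 9.40 and 12.3 CPM in TAC hearts 1 to 5, against 5.45, 5.12, 6.46, 6.29 and 4.81 CPM in sham hearts 1 to 5, no overlap and a rise of 2.14-fold (log2 fold change 1.10 ± 0.14 (SE), edgeR adjusted p = 0.000135). Its partner Smc2 rose 2.63-fold (edgeR adjusted p = 0.000173), and Ncaph, a subunit of condensin I only, 3.41-fold (edgeR adjusted p = 0.000585). Ncapg, another condensin I subunit, was below the filter, with 8, 3, 16, 6 and 11 counts in TAC hearts, against 0, 0, 3, 0 and 0 counts in sham hearts. All of its sham counts came from 1 heart, sham heart 3.

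The kinetochore was divided. Cenpa, the histone H3 variant that marks centromeres, had 18.6, 15.4, 22.1, 17.4 and 16.1 CPM in TAC hearts 1 to 5, against 11.5, 15.2, 17.05, 18.9 and 15.2 CPM in sham hearts 1 to 5. The groups overlapped over most of their range, and the gene did not pass the test (log2 fold change 0.21 ± 0.13 (SE), edgeR adjusted p = 0.244). In sham hearts its mean of 15.6 CPM was the highest of any member. Cenpf, a large protein of the outer kinetochore and nuclear envelope, had 15.8, 11.4, 15.7, 12.3 and 16.8 CPM in TAC hearts 1 to 5, against 8.49, 8.78, 13.2, 14.4 and 10.4 CPM in sham hearts 1 to 5. Sham hearts 3 and 4 reached the range of the TAC hearts (log2 fold change 0.39 ± 0.16 (SE), edgeR adjusted p = 0.0769). It passed without TAC heart 2 (log2 fold change 0.45, edgeR adjusted p = 0.0463), without sham heart 4 (0.50, adjusted p = 0.0296) and with library totals alone as scaling (0.50, adjusted p = 0.0318). Spc24, a subunit of the Ndc80 complex that grips microtubule ends, had 2.66, 1.77, 2.89, 3.03 and 2.74 CPM in TAC hearts 1 to 5, against 2.62, 1.83, 2.32, 2.06 and 2.98 CPM in sham hearts 1 to 5. Here the groups coincided (log2 fold change 0.15 ± 0.19 (SE), edgeR adjusted p = 0.571). Cenpe, the kinetochore motor that carries chromosomes to the spindle equator, had 7.28, 4.48, 6.63, 4.18 and 6.26 CPM in TAC hearts 1 to 5, against 0.210, 0.244, 1.42, 0.457 and 0.916 CPM in sham hearts 1 to 5. The groups did not overlap, and the rise was 8.96-fold (log2 fold change 3.16 ± 0.35 (SE), edgeR adjusted p = 5.25e-05).

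The remaining subunits of the Ndc80 complex were too scarce for the test. Spc25, the binding partner of Spc24, had 18, 13, 13, 11 and 10 counts in TAC hearts, against 4, 0, 2, 1 and 3 counts in sham hearts. Nuf2 had 13, 9, 21, 5 and 14 counts in TAC hearts, against 2, 2, 2, 0 and 1 counts in sham hearts. In both genes every TAC heart lay above every sham heart. Ndc80 itself had 12, 7, 13, 2 and 12 counts in TAC hearts, against 0, 0, 3, 4 and 0 counts in sham hearts, and its groups overlapped because TAC heart 4 was low.

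All 4 genes of the chromosomal passenger complex, which corrects faulty attachments and later marks the division plane, rose (median log2 fold change 2.95). Incenp, its scaffold, was the most abundant of them, with 20.5, 11.1, 24.7, 17.5 and 18.4 CPM in TAC hearts 1 to 5, against 5.97, 6.71, 7.88, 6.18 and 6.29 CPM in sham hearts 1 to 5. The sham hearts lay close together, all TAC hearts were above them, and the rise of 2.81-fold was the smallest of the complex (log2 fold change 1.49 ± 0.18 (SE), edgeR adjusted p = 8.07e-05). Cdca8, borealin, had 7.51, 4.76, 8.44, 5.12 and 6.59 CPM in TAC hearts 1 to 5, against 0.314, 0.488, 1.03, 1.26 and 0.572 CPM in sham hearts 1 to 5, with no overlap and a rise of 8.81-fold (log2 fold change 3.14 ± 0.29 (SE), edgeR adjusted p = 2.71e-05). Aurkb, the Aurora kinase of the complex, had 7.51, 2.99, 8.56, 4.91 and 5.49 CPM in TAC hearts 1 to 5, against 0.419, 0.366, 0.517, 0.572 and 0.572 CPM in sham hearts 1 to 5. No sham heart exceeded 5 counts, and the rise was 11.8-fold (log2 fold change 3.56 ± 0.33 (SE), edgeR adjusted p = 2.71e-05). Birc5, survivin, averaged 5.27 ± 1.75 CPM in TAC hearts and 0.766 ± 0.181 CPM in sham hearts (SD, n = 5 each) and rose 6.79-fold (edgeR adjusted p = 4.62e-05).

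**Figure D3:**
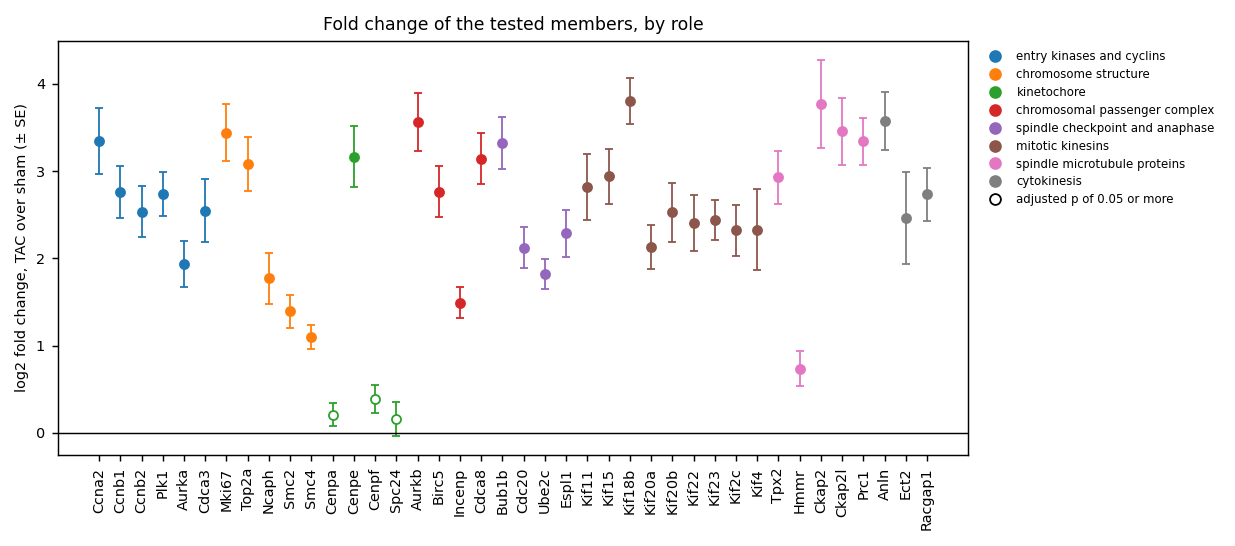
Log2 fold change of the 40 tested members, TAC over sham, with SE as bars, coloured by role. Filled points passed the test and open points did not. The open points are Cenpa (0.21), Cenpf (0.39) and Spc24 (0.15), Hmmr (0.73) is the lowest filled point, and Kif18b (3.80) the highest.

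Of the genes of the spindle checkpoint and of anaphase, all 4 that were tested rose. Cdc20, the activator that the checkpoint holds back, had 11.2, 7.07, 10.00, 5.53 and 9.11 CPM in TAC hearts 1 to 5, against 1.99, 1.34, 2.97, 1.94 and 1.60 CPM in sham hearts 1 to 5. Every TAC heart was above every sham heart (log2 fold change 2.12 ± 0.24 (SE), edgeR adjusted p = 5.56e-05). Espl1, separase, the protease that cuts cohesin, had 10.98, 4.62, 10.6, 7.31 and 7.13 CPM in TAC hearts 1 to 5, against 0.838, 1.95, 2.07, 1.72 and 1.83 CPM in sham hearts 1 to 5. Sham heart 1 was the lowest library, and the groups were apart (log2 fold change 2.29 ± 0.27 (SE), edgeR adjusted p = 7.82e-05). Ube2c, a ubiquitin-conjugating enzyme of the anaphase-promoting complex, had 8.09, 5.84, 7.95, 5.64 and 7.57 CPM in TAC hearts 1 to 5, against 1.89, 1.59, 2.20, 2.40 and 1.83 CPM in sham hearts 1 to 5, and its rise of 3.53-fold was the smallest here (log2 fold change 1.82 ± 0.17 (SE), edgeR adjusted p = 2.71e-05). Bub1b, the checkpoint protein BubR1, rose 9.97-fold (edgeR adjusted p = 2.52e-05). The checkpoint kinases Bub1 and Ttk were below the filter. Bub1 had 9, 5, 10, 9 and 4 counts in TAC hearts, against 0, 0, 1, 0 and 3 counts in sham hearts. Ttk had 10, 4, 10, 10 and 10 counts in TAC hearts, against 3, 0, 2, 0 and 1 counts in sham hearts. For both of these kinases all TAC hearts lay above all sham hearts.

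Mitotic kinesins, motors that build and move the spindle, rose in all 9 tested cases, with log2 fold changes of 2.13 to 3.80 and a median of 2.44. Each of the 9 reached the level required by the filter in all 5 TAC hearts but not in all 5 sham hearts. They thus entered the test through the group in which they were high, where 18.8% of all tested genes rose. Kif23, a motor of the central spindle, had 6.24, 5.71, 11.4, 6.05 and 7.46 CPM in TAC hearts 1 to 5, against 1.15, 1.22, 1.29, 1.60 and 1.49 CPM in sham hearts 1 to 5. TAC heart 3 stood highest, and the sham hearts lay close together below the TAC range (log2 fold change 2.44 ± 0.23 (SE), edgeR adjusted p = 2.73e-05). Kif20a, which brings the passenger complex to the central spindle, had 8.44, 4.35, 7.35, 5.53 and 7.02 CPM in TAC hearts 1 to 5, against 0.838, 1.22, 1.55, 2.40 and 1.49 CPM in sham hearts 1 to 5, without overlap (log2 fold change 2.13 ± 0.25 (SE), edgeR adjusted p = 7.82e-05). Kif18b, which acts at the plus ends of astral microtubules, had 7.40, 5.71, 8.20, 5.64 and 8.12 CPM in TAC hearts 1 to 5, against 0.314, 0.366, 0.775, 0.801 and 0.229 CPM in sham hearts 1 to 5. It had 302 counts over all TAC hearts and 21 over all sham hearts, and its rise of 13.95-fold was the largest of the tested members (log2 fold change 3.80 ± 0.27 (SE), edgeR adjusted p = 6.57e-06). The bipolar motor Kif11 and its helper Kif15 rose 7.05-fold and 7.67-fold, the chromosome-arm motors Kif22 and Kif4 5.30-fold and 5.03-fold, the microtubule-shortening Kif2c 4.99-fold and Kif20b, which acts late in cytokinesis, 5.76-fold. The largest edgeR adjusted p of these 6 was 0.00190, for Kif4. Kif18a, which dampens the movements of aligned chromosomes, was the exception. It had 2, 2, 5, 3 and 4 counts in TAC hearts, against 1, 4, 5, 5 and 6 counts in sham hearts, its groups overlapped widely, and it was too scarce for the test.

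Among proteins that organise spindle microtubules, all 5 that were tested rose. Prc1, which bundles the overlapping microtubules of the central spindle, had 14.2, 10.2, 16.6, 11.8 and 15.04 CPM in TAC hearts 1 to 5, against 1.05, 0.488, 2.45, 1.83 and 0.916 CPM in sham hearts 1 to 5. No sham heart came near the TAC range (log2 fold change 3.34 ± 0.27 (SE), edgeR adjusted p = 1.07e-05). Tpx2, which activates Aurora A and seeds microtubules around chromosomes, had 13.4, 5.71, 13.3, 8.56 and 10.98 CPM in TAC hearts 1 to 5, against 0.734, 1.46, 1.55, 2.29 and 0.801 CPM in sham hearts 1 to 5, with TAC heart 2 lowest and still above all sham hearts (log2 fold change 2.93 ± 0.30 (SE), edgeR adjusted p = 4.23e-05). Hmmr, a spindle protein also known as a hyaluronan receptor, had 6.13, 4.21, 5.42, 4.07 and 4.28 CPM in TAC hearts 1 to 5, against 2.83, 1.95, 4.26, 2.74 and 2.75 CPM in sham hearts 1 to 5. Sham heart 3 lay above TAC hearts 2 and 4, so the groups overlapped, and the rise of 1.66-fold was the smallest that passed (log2 fold change 0.73 ± 0.20 (SE), edgeR adjusted p = 0.0124). Ckap2 and its relative Ckap2l, which bind spindle microtubules, rose by 3.77 ± 0.51 and 3.46 ± 0.38 on the log2 scale (edgeR adjusted p = 0.000160 and 5.25e-05), with 11 and 19 counts over all sham hearts. Nusap1, another spindle-binding protein, did not enter the test because TAC heart 2 was low. It had 18, 7, 40, 29 and 35 counts in TAC hearts, against 11, 8, 4, 9 and 5 counts in sham hearts.

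The 3 cytokinesis genes rose as well, and all 3 entered the test through the TAC hearts, since not all sham hearts reached the level required by the filter. Anln, anillin, the scaffold of the contractile ring, had 9.36, 6.93, 10.2, 5.53 and 10.4 CPM in TAC hearts 1 to 5, against 0.105, 0.854, 1.16, 0.457 and 1.03 CPM in sham hearts 1 to 5. The groups were far apart (log2 fold change 3.57 ± 0.33 (SE), edgeR adjusted p = 2.71e-05). Racgap1, the partner of Kif23 in the centralspindlin complex, had 7.74, 3.94, 9.40, 4.70 and 7.13 CPM in TAC hearts 1 to 5, against 0.629, 0.610, 1.55, 0.915 and 1.26 CPM in sham hearts 1 to 5, also without overlap (log2 fold change 2.73 ± 0.31 (SE), edgeR adjusted p = 5.65e-05). Ect2, the exchange factor that activates RhoA at the division plane, had 3.58, 1.36, 3.86, 1.88 and 1.87 CPM in TAC hearts 1 to 5, against 0.524, 0, 1.29, 0.229 and 0.229 CPM in sham hearts 1 to 5. TAC heart 2 and sham heart 3 almost met, and the SE was the largest of any tested member (log2 fold change 2.46 ± 0.52 (SE), edgeR adjusted p = 0.00297).

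Levels per kilobase of exon put the genes on an approximate common scale of abundance. The length was the union of all annotated exons of a gene, and which isoforms were in use was not determined. In TAC hearts the highest were Cdc20 at 4.60, Incenp at 4.26, Mki67 at 3.95, Ccnb2 at 3.14 and Cenpa at 3.06 CPM per kilobase. In sham hearts the order was Cenpa at 2.66, Incenp at 1.53, Smc4 at 1.08, Cdc20 at 1.05 and Spc24 at 0.918 CPM per kilobase. Cenpa and Spc24, which did not pass the test, thus stood among the 5 highest members in sham hearts.

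Pairs of related genes were compared inside each library, which removes the scaling of that library. For each of 10 pairs the log2 ratio of CPM, with a prior count of 2, was set between groups by an exact two-sided permutation test over all 252 divisions of the 10 hearts, whose smallest possible p is 0.00794. In 8 pairs the ratio differed at that smallest p, 0.00992 after adjustment over the 10 pairs, and was higher in all 5 TAC hearts than in any sham heart. The pairs were chosen with earlier results of these data known, and several set a gene that rose against one that did not. For those pairs a difference could be foreseen, so the p-values are no independent support. Top2a against Top2b, the isoform that non-dividing cells use, had log2 ratios of -0.78 ± 0.60 in TAC hearts and -3.63 ± 0.67 in sham hearts (SD, n = 5 each). Top2b itself averaged 29.4 ± 2.89 CPM in TAC hearts and 26.7 ± 0.793 CPM in sham hearts and did not pass the test (edgeR adjusted p = 0.157). Kif18b against Kif18a had 3.60 ± 0.27 in TAC hearts and -0.0011 ± 0.65 in sham hearts, a difference of 3.60. The ratio of Spc25 to its partner Spc24 was -0.70 ± 0.54 in TAC hearts and -2.57 ± 0.39 in sham hearts, and that of Aurkb to Aurka 0.85 ± 0.25 in TAC hearts and -0.47 ± 0.36 in sham hearts. In 2 pairs a condensin I subunit gained on its condensin II counterpart, by 1.65 for Ncaph over Ncaph2 and 0.95 for Ncapg over Ncapg2. With a prior count of 0.5 the last difference was 2.31 and that of Ncaph over Ncaph2 1.79, so their order depends on that choice. Ncaph2 averaged 78.8 ± 4.05 CPM in TAC hearts and 83.04 ± 2.53 CPM in sham hearts (edgeR adjusted p = 0.285). Ncapg2, by contrast, rose 2.21-fold itself (edgeR adjusted p = 0.00326). The condensin I subunit Ncapd2 and its condensin II counterpart Ncapd3 were not compared as a pair. Their log2 fold changes were 0.18 and 0.08 (edgeR adjusted p = 0.0318 and 0.586). Cdk1, as the Cdc2a row, gained 2.49 on Cdk2, the kinase of the G1 and S phases. Bub1b over Bub1 differed by 1.10, but with a prior count of 0.5 by 0.26 (adjusted p = 0.603 in the exact permutation test). Ccnb1 over Ccnb2 differed by 0.08 and Kif20a over Kif20b by 0.04, both less than the spread between hearts (adjusted p = 0.820 and 0.881 in the exact permutation test).

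**Figure D4:**
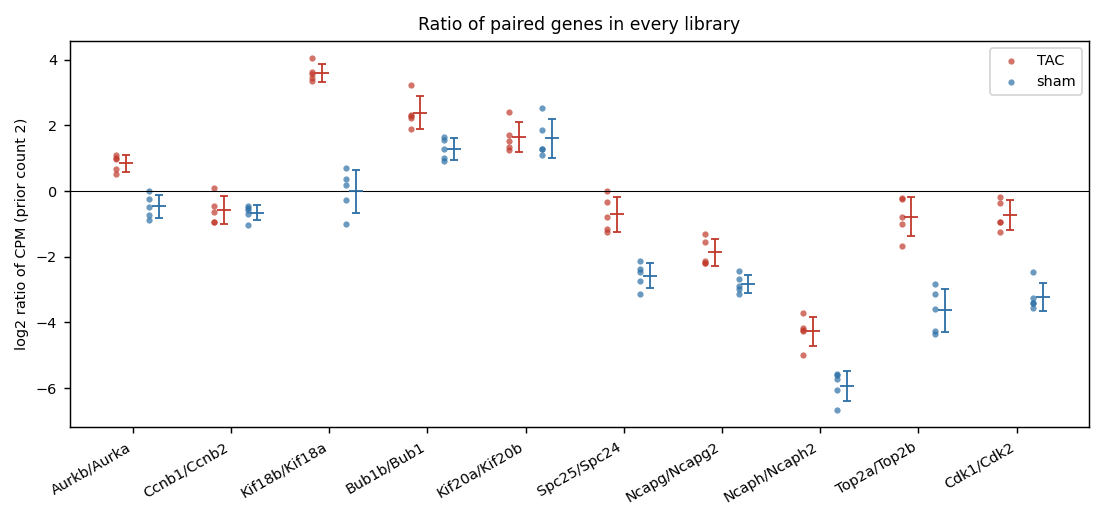
Log2 ratio of CPM (prior count 2) of 10 gene pairs in every library, red for TAC hearts and blue for sham hearts to their right, with the mean and SD of 5 libraries beside the points. All TAC points lie above all sham points for 8 pairs, and the groups overlap for Ccnb1/Ccnb2 and Kif20a/Kif20b.

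The same hearts tended to be high or low for many members. TAC heart 3 was the highest TAC heart for 34 of the 49 members, whereas it was so for 15.4% of all tested genes, and TAC heart 2 was the lowest for 34, against 21.6% of all tested genes. Among sham hearts, sham heart 3 was the highest for 23 members, against 18.7% of tested genes, and sham heart 4 for 14, against 19.4% of tested genes. The summed level spanned 1.90-fold among TAC hearts and 1.65-fold among sham hearts. TAC heart 3 had the highest TAC sum in 7 of the 8 role groups, and TAC heart 2 the lowest in 7. Genes of chromosome structure summed to 49.9 to 107 CPM in TAC hearts and 9.76 to 21.6 CPM in sham hearts, kinesins to 29.1 to 53.03 CPM in TAC hearts and 4.82 to 10.1 CPM in sham hearts and cytokinesis genes to 12.1 to 23.5 CPM in TAC hearts and 1.26 to 4.004 CPM in sham hearts. Group means differed 5.45-fold, 5.65-fold and 8.11-fold. Kinetochore genes summed to 36.97 to 52.9 CPM in TAC hearts and 23.5 to 36.4 CPM in sham hearts, a ratio of means of 1.48, and this sum was mostly Cenpa and Cenpf.

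**Figure D5:**
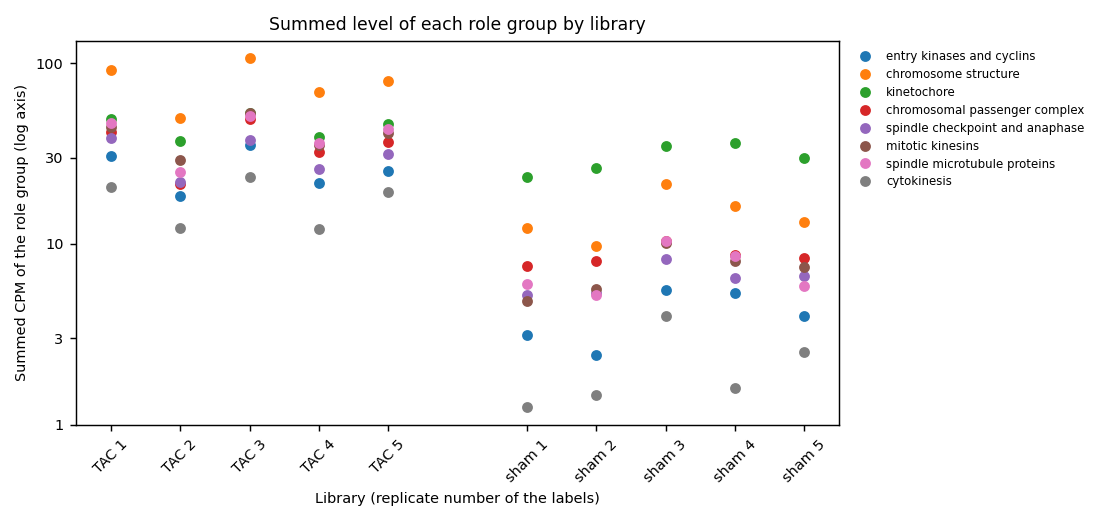
Summed CPM of the members of each of 8 role groups in every library, on a log axis, with TAC hearts 1 to 5 at the left and sham hearts 1 to 5 at the right. Each colour is a role group. The kinetochore sum (green) lies at 36.97 to 52.9 CPM in TAC hearts and 23.5 to 36.4 CPM in sham hearts, much closer between groups than the other 7 sums.

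Most tested mitotic genes outside the member list rose as well. Of 79 with a row, 52 were tested, 36 rose, 1 fell and 15 did not pass. The median log2 fold change of the 52 was 1.31. Some of the 36, such as Nek2, Cep55 and Kntc1, reached the level required by the filter in all 5 TAC hearts but in 0 sham hearts. They entered the test through the group in which they were high, and the count describes the tested genes only. Of all tested genes, 18.8% rose and 17% fell. Foxm1, the transcription factor of late mitotic genes, rose 5.76-fold (edgeR adjusted p = 1.57e-05), Nek2, a centrosome kinase, 9.62-fold, Arhgap11a, a regulator of RhoA, 4.83-fold, and Lmnb1, lamin B1, 3.12-fold. Zwint, a kinetochore protein, was the one that fell (log2 fold change -0.17 ± 0.06 (SE), edgeR adjusted p = 0.0363). Subunits and regulators of cohesin and of the anaphase-promoting complex, which are used in non-dividing cells too, gave 1 rise (Anapc2), 2 falls (Anapc11 and Anapc13) and 19 that did not pass among 22 tested, with a median of 0.02. The falls numbered 1 without TAC heart 1, TAC heart 4, sham heart 4 or sham heart 5. Of the 3 that passed, Anapc13 had the largest change (log2 fold change -0.42 ± 0.05 (SE), edgeR adjusted p = 0.000131).

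Upstream of mitosis, 24 of 35 tested DNA replication genes rose, 1 fell and 10 did not pass (median 0.83). Some of the 24 in this list, such as Dbf4 and Gins2, also entered the test through the TAC hearts alone. The background for this and the next lists is 18.8% of all tested genes rising and 17% falling. Mcm6, a subunit of the replicative helicase, rose 4.72-fold, Mcm5 3.51-fold, Lig1, the DNA ligase of replication, 3.001-fold and Mcm2 2.62-fold (largest edgeR adjusted p 0.000136). Gmnn, geminin, which blocks relicensing of replication origins, fell to 0.703 of its sham level (edgeR adjusted p = 0.00111). Of the 20 regulators of the DREAM and E2F families, 8 rose, 3 fell and 9 did not pass (median 0.23). Foxm1 and Mybl2 are among these 8 and were also counted among the 36 other mitotic genes that rose. Mybl2, the Myb factor of the MuvB complex, rose 7.32-fold and E2f1, an activating E2F, 5.34-fold (edgeR adjusted p = 0.000156 and 0.000150). The repressor E2f6, the retinoblastoma relative Rbl2 and Tfdp2, a dimer partner of E2F, fell, with log2 fold changes of -0.29, -0.32 and -0.73. Of 13 tested cyclins, kinases and inhibitors of G1, 6 rose, 1 fell and 6 did not pass (median 0.31). Ccnd1, cyclin D1, rose 2.07-fold, Cdkn2c, an inhibitor of its kinases, 1.91-fold, Cdk6, one of those kinases, 1.49-fold and Ccnd2 1.43-fold (largest edgeR adjusted p 0.00432). Cdkn1c, another inhibitor, fell (log2 fold change -0.50 ± 0.16 (SE), edgeR adjusted p = 0.0296), and the count of falls was 0 without TAC heart 1, TAC heart 3, or any one of sham hearts 2 to 5, and 2 without TAC heart 5.

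Markers of some cell types that could carry these transcripts differed between the groups, and those of others mostly did not. Of all tested genes, 18.8% rose and 17% fell. The shares of endothelial, pericyte and smooth muscle, and epicardial markers that rose were near that background. Of 10 tested macrophage markers 9 rose, and their sum was 397 to 663 CPM in TAC hearts and 246 to 287 CPM in sham hearts, with no overlap. Of 9 fibroblast markers 8 rose, and the sum was 2985 to 8659.6 CPM in TAC hearts and 927 to 1397 CPM in sham hearts. That sum was mostly collagen: it averaged 4383 CPM in TAC hearts, where Col1a1, Col1a2 and Col3a1 averaged 1351, 904 and 1532 CPM. These collagen genes rose 4.40-fold, 4.25-fold and 4.35-fold. Pdgfra, Dcn, Ddr2 and Lum rose 1.20-fold, 1.24-fold, 1.28-fold and 1.95-fold, and Tcf21 did not pass. TAC heart 1 was the highest in the macrophage and the fibroblast sum, at 663 and 8660 CPM. It was the highest TAC heart for 11 of the 49 mitotic members and for 26.8% of all tested genes. Postn, periostin, secreted by activated fibroblasts, rose 8.62-fold and C1qa, a complement gene of macrophages, 1.62-fold (edgeR adjusted p = 1.07e-05 and 0.000503). Endothelial markers summed to 1286 to 1598 CPM in TAC hearts and 1223 to 1447 CPM in sham hearts, and 2 of 8, Cdh5 and Pecam1, rose. Pericyte and smooth muscle markers summed to 1452 to 1689 CPM in TAC hearts and 1419.9 to 1782 CPM in sham hearts, and 2 of 8, Cspg4 and Pdgfrb, rose. Cardiomyocyte markers summed to 55925 to 81902 CPM in TAC hearts and 87215 to 103301 CPM in sham hearts, 7 of 8 fell, and their presence at these levels fits the labelled tissue. Lymphocyte markers summed to 2.40 to 3.35 CPM in TAC hearts and 2.17 to 2.93 CPM in sham hearts, with none of the 8 abundant enough to test. Of the monocyte and neutrophil markers, which summed to 3.51 to 9.13 CPM in TAC hearts and 2.19 to 8.01 CPM in sham hearts, Csf3r was testable and rose, and 1 was at 0 in all libraries. Erythroid markers summed to 1004 to 2147 CPM in TAC hearts and 276 to 1697 CPM in sham hearts, and the 6 that were tested had log2 fold changes of 0.34 to 0.59 that did not pass (smallest edgeR adjusted p = 0.239). Epicardial markers summed to 27.5 to 55.6 CPM in TAC hearts and 25.8 to 47.4 CPM in sham hearts, and 1 of the 4 tested, Wt1, rose. The part of cell numbers in the mitotic transcripts was not tested.

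The members lie on 16 chromosomes. The libraries do not keep the strand. Where exons of 9 members overlap those of another gene of the table, reads in the shared stretch cannot be told apart. The length of each shared stretch was not measured, and the settings of the counter were not given. The pairs are Ube2c with Tnnc2, Kif20a with Cdc23, Cdc20 with Elovl1, Ncapg with Lcorl, Kif18a with Mett5d1, Nusap1 with Oip5, Ccna2 with Exosc9, Kif4 with Pdzd11 and Prc1 with Rccd1. Of these members, Ube2c, Kif20a, Cdc20, Ccna2, Kif4 and Prc1 were tested and rose.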

How the data were processed

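The deposited table holds raw read counts per Ensembl gene for 10 libraries, made by the authors and not normalized. Per the labels' protocols, polyadenylated RNA was made into single-end libraries without strand. Per the submitters' processing notes, TAC libraries went through Bowtie, TopHat 1.3.0 and HTSeq with mm9 and mm10, and sham libraries through Bowtie2, TopHat2 2.0.10 and HTSeq with mm10. The file header names GRCm37 for the gene IDs. Settings of the counter and the release of the annotation were not given in the sources used here, and reads shared with pseudogenes were not examined. A row of column totals was left out. No animal identifiers are given, so p-values measure the spread between these samples.

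Members were matched by symbol in the table. The members, the lists and the pairs were chosen with earlier results of these data known. Counts were tested with edgeR 4.0.16 (R 4.3.3) by quasi-likelihood F tests with TMM factors, filterByExpr (minimum count 10, minimum total 15, which here equals 1.19 CPM in 5 libraries), a model with group alone, and the Benjamini-Hochberg method at 0.05. The depth of 7410967 to 10126574 counts left 9 members untested, and these are given as counts. An SE is the log2 fold change divided by the square root of F. Alternatives were DESeq2 1.42.0, limma-voom (limma 3.58.1), library totals, RLE factors, no filter, a mean of at least 1 CPM, robust dispersion, a replicate block and each library left out. The method was tested on simulated data. Exonic lengths and overlaps come from GENCODE annotation on GRCm38, and promoters from RefSeq on GRCm38.p6, a reference of another strain than FVB/NJ.

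Every member is named. Values in every library are given, within a role, for the 3 members with the highest mean CPM and the tested one with the smallest change, and for untested members. From each list, up to 4 genes with the smallest adjusted p and those that passed in the minority direction are taken, and some of these are left out of the text.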

Additional observations from a re-analysis of the deposited data

Results flagged for a closer look

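In 80 sets of 5 libraries, the TAC and the sham hearts of each tested member, 1 library stood apart from the other 4 in 4 sets. Chance alone gives about 1 in 20 by the criterion used, which compares the gap of the extreme library with the range of its group. The 4 sets found are about as many as chance alone gives. Ccnb1 had 2.17 CPM in TAC heart 2, against 3.18 to 3.50 CPM in the other TAC hearts. Ckap2l also had 2.17 CPM in TAC heart 2, against 5.20 to 5.95 CPM in the other TAC hearts. Kif22 had 2.32 CPM in sham heart 3, against 0.572 to 1.03 CPM in the other sham hearts. Espl1 had 0.838 CPM in sham heart 1, against 1.72 to 2.07 CPM in the other sham hearts. All 4 genes stayed higher in TAC hearts in each fit that left out 1 library.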

How the results depend on the processing

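Over the alternatives, 37 to 45 members rose and 0 fell. Leaving out 1 library at a time gave 37 to 41 rises and 0 falls, and counting the Cdc2a row, an alternative chosen after seeing the data, gave 38. No tested member changed sign, and Cenpf alone crossed the threshold, in the 3 fits named with its values. The labels give no pairing of hearts by replicate number. Correlations of same-numbered deviations were 0.00, -0.04, 0.06, 0.22 and -0.09, and TAC heart 2 with sham heart 1 gave 0.25. Such values cannot decide whether hearts were handled in pairs. With a replicate block 37 members and 33 other mitotic genes rose, with 2113 rises over all genes. Scaling by library totals gave 1159 falls over all genes, 3 rises and 1 fall for cohesin and the anaphase-promoting complex, and 0 falls for G1 genes. Without 1 library, falls numbered 1 to 3 for cohesin and the anaphase-promoting complex and 0 to 2 for G1 genes. A prior count of 0.5 gave 0.26 for Bub1b over Bub1, -0.28 for Kif20a over Kif20b, 2.31 for Ncapg over Ncapg2 and 0.28 for Ccnb1 over Ccnb2. Without 1 library the differences lay between -0.15 and 0.27 for Kif20a over Kif20b and between -0.091 and 0.17 for Ccnb1 over Ccnb2. The cause of these shifts was not tested. With the 150 bases before the start alone, 35.7% of member promoters held a CHR element and 28.6% both motifs. Other mitotic genes gave 33 to 51 rises, the highest with no filter. Depth limits the 32 members with fewer than 50 counts over the sham hearts.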
